A study of Mus musculus with 6 samples.

Results

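The genes described here are the 47 genes of the integrated stress response and the unfolded protein response that were listed by name: the kinases and sensors that start both responses, the transcription factor ATF4 with its relatives and targets, and the chaperones and degradation factors of the endoplasmic reticulum (ER). They were found by symbol among the 54532 genes of the deposited table, and all 47 were present. *Ddit3* has 2 entries there, of which the second, a short overlapping gene model, had 0 counts in all libraries and was left aside. RNA-sequencing covered GFP-positive AML cells sorted from mouse bone marrow. Both groups were driven by RUNX1-ETO9a (RE9a), a truncated form of the t(8;21) fusion protein, carried with GFP on a retrovirus into fetal liver cells and passaged through male recipient mice. *WT Phf6,RE9a* cells (replicates 1, 2 and 3) come from *Phf6* fl/y males without Cre. *VC Phf6,RE9a* cells (replicates 11, 12 and 13) carry the same floxed allele with Vav1-Cre, which acts in all blood cells from early on, so that loss of *Phf6* precedes the leukemia. Whether a group's 3 libraries come from separate leukemias is not in the labels, and p-values measure only the spread between these libraries.

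When unfolded protein gathers in the ER, the sensors PERK (*Eif2ak3*), IRE1 (*Ern1*) and ATF6 (*Atf6*) are set off. PERK phosphorylates the initiation factor eIF2α, as GCN2 (*Eif2ak4*) does when amino acids run short, and general translation falls while the *Atf4* message is translated more. ATF4 then switches on genes for amino acid import and synthesis and for tRNA charging, together with stress regulators such as CHOP (*Ddit3*), whereas ATF6 and the spliced form of *Xbp1* switch on ER chaperones and the ER-associated degradation machinery. Myeloid cells rely on both responses while they make large amounts of granule and membrane protein. Most of the early steps act on protein and translation, which counts of mRNA do not show.

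ATF6 and XBP1 are known to act through the ER stress response element (ERSE), CCAAT and CCACG with 9 bases between them, or its compact form ERSE-II, ATTGG and CCACG with 1 base between them. ATF4 with C/EBP partners acts through the C/EBP-ATF response element (CARE), searched here as TGATGNAA. All motifs were searched on both strands of RefSeq promoter windows (GRCm38.p6), from 250 bases before to 50 after the start, and 41 of the 47 genes had a window. ERSE was found in 8 of these 41 genes and in 0.137% of the 27025 genes with a window, and the 8 were *Pdia6*, *Creld2*, *Dnajc3*, *Hsp90b1*, *Canx*, *Calr*, *Hspa5* and *Syvn1*. CARE was found in 8 of the 41 genes and in 4.51% of all genes, and these 8 were *Herpud1*, *Asns*, *Pycr1*, *Trib3*, *Chac1*, *Aars*, *Gars* and *Atf3*. ERSE-II was found in *Herpud1*. The stretches below belong to the 8 genes that hold a motif and passed the test between the groups, so that each motif can be read beside the gene's change. They run 5′ to 3′ along the gene's strand, with the motif in capitals.
*Asns*, CARE, chr6:7693195-7693262, minus strand: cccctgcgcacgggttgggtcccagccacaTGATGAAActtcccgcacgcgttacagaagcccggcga
*Trib3*, CARE in reverse, chr2:152344032-152344076, minus strand: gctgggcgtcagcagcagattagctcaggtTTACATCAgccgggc
*Chac1*, CARE in reverse, chr2:119351019-119351086, plus strand: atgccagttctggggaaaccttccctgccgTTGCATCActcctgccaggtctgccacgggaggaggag
*Pdia6*, ERSE, chr12:17266461-17266539, plus strand: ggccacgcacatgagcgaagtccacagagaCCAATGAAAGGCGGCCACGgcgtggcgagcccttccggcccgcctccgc
*Dnajc3*, ERSE, chr14:118937797-118937875, plus strand: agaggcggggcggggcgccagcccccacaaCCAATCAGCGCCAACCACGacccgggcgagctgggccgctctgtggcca
*Syvn1*, ERSE, chr19:6046502-6046580, plus strand: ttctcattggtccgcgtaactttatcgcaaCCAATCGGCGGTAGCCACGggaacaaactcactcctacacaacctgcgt
*Hsp90b1*, the first of its ERSE matches, chr10:86705608-86705686, minus strand: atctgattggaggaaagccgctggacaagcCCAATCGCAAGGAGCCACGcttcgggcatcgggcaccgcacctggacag
*Creld2*, ERSE in reverse, chr15:88819490-88819568, plus strand: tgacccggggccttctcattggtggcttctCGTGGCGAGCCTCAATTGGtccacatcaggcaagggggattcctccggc
Since the genes shown were chosen for having passed, their number supports nothing. Of all 8 listed genes with CARE, 3 were higher, 0 lower and 5 did not pass, and of the 8 with ERSE 1 was higher, 4 were lower and 3 did not pass. Of all genes tested 21.5% were higher and 22.7% lower, and of 268 genes with CARE outside the list 23.9% were higher and 25.0% lower.

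The whole table gave the following frame. Total counts per library ran from 15675358 to 16817994. After TMM scaling the groups were compared by the quasi-likelihood test of edgeR. P-values were adjusted (Benjamini-Hochberg) over the 14169 genes that passed a filter on low counts, and a gene passed at an adjusted p under 0.05. *Phf6* itself was read 1044, 827 and 1142 times in the *WT Phf6,RE9a* and 388, 314 and 331 times in the *VC Phf6,RE9a* libraries, a log2 fold change of -1.66 (edgeR adjusted p = 9.32e-05). Of 8 genes listed for leukemic myeloid cells, *Spi1* and *Ptprc* were read in all 6 libraries and did not pass the test. *Ptprc*, which is not particular to myeloid cells, was low, at 0.661 to 3.06 FPKM. *Kit* and *Cd33* were lower and *Mpo*, *Cebpa*, *Csf3r* and *Itgam* higher in *VC Phf6,RE9a* cells. These 8 genes summed to between 2153 and 2981 CPM in *WT Phf6,RE9a* and between 484 and 713 CPM in *VC Phf6,RE9a* libraries. *Kit* made up most of the *WT Phf6,RE9a* sums. It had 2686, 2697 and 1876 CPM there and 217, 352 and 251 CPM in the *VC Phf6,RE9a* libraries. Lists of neutrophil granule genes and of mast cell and basophil genes also differed between the groups. Whether leukemic or other cells carried these messages was not tested. The summed level of 9 neutrophil granule genes ran from 164 to 502 CPM in *WT Phf6,RE9a* and from 1013 to 3728 CPM in *VC Phf6,RE9a* libraries, with all 9 higher, and that of 8 mast cell and basophil genes from 15598 to 24292 CPM and from 6835 to 7470 CPM, with 7 lower. Plasma cells, which carry a strong unfolded protein response, had 9 markers that summed to between 14.5 and 28.7 CPM in *WT Phf6,RE9a* and between 33.6 and 97.1 CPM in *VC Phf6,RE9a* libraries. Of these, *Tnfrsf17* had 0 counts in all libraries. Of the 6 markers tested 3 were higher, *Irf4*, *Ighm* and *Jchain*, whereas *Igkc*, *Prdm1* and *Derl3* did not pass. *Ighm* and *Igkc* had the highest CPM of the 9 in each *VC Phf6,RE9a* library. *Prdm1* and *Derl3* had lower means in *VC Phf6,RE9a* cells, and for *Prdm1* all *VC Phf6,RE9a* libraries lay under the *WT Phf6,RE9a* libraries. Fewer cells of a type and less RNA per cell cannot be told apart in bulk samples.
Further marker lists gave the following sums. The 8 proliferation markers summed to between 1743 and 2594 CPM in *WT Phf6,RE9a* and between 2841 and 3050 CPM in *VC Phf6,RE9a* libraries, with 5 higher. The 8 erythroid genes, all higher, went from between 1454 and 2199 CPM to between 4731 and 5413 CPM. The 7 B cell markers, of which 4 were tested and all 4 were higher, went from between 0.678 and 1.62 CPM to between 9.45 and 28.3 CPM in sum. The 7 T cell markers summed to between 1.23 and 1.82 CPM and between 6.59 and 9.15 CPM, but *Lck* was the 1 marker tested and made up most of the latter sum. The other 6, *Cd3d*, *Cd3e*, *Cd3g*, *Cd4*, *Cd8a* and *Trac*, had too few counts to be tested, with overlapping groups. Of the 7 stromal and endothelial markers, which summed to between 2.37 and 5.33 CPM and between 8.14 and 10.1 CPM, 3 were tested and 1, *Cxcl12*, was higher. Of the 7 macrophage markers, which summed to between 29.6 and 42.9 CPM and between 52.3 and 67.0 CPM, *Vcam1* and *Cd68* were higher and the other 5 did not pass. A list of 8 immediate-early genes, added after the values were seen, summed to between 26379 and 40426 CPM in *WT Phf6,RE9a* and between 12561 and 19507 CPM in *VC Phf6,RE9a* libraries, with 6 lower. The part of these shifts in the results below was not tested.

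All 47 genes passed the count filter. In *VC Phf6,RE9a* cells 9 of them were higher and 12 lower at edgeR's adjusted p under 0.05, and 26 did not pass. Of all genes tested, 44.2% passed this threshold, 21.5% higher and 22.7% lower, and for the 47 genes the shares were 44.7%, 19.1% and 25.5%. As a whole the list was called about as often as genes in general. Its median log2 fold change was -0.03, beside 0.01 over all genes tested. Changes of at least 2-fold were fewer, with 3 genes higher and 2 lower, where 9.95% and 11.5% of all genes tested lay past that size. The *VC Phf6,RE9a* libraries all lay under the *WT Phf6,RE9a* libraries for 15 genes and above them for 10, and the groups of the other 22 overlapped. Of all genes tested 57.3% had separate groups, 28.4% and 28.9% in these directions. Without *VC Phf6,RE9a* replicate 12, 6 of the 47 genes were lower, and without replicate 13, 7. Such fits hold fewer libraries, and the calls over all genes in them are not given here.
By role the calls were as follows. Of the 7 enzymes of amino acid and one-carbon synthesis 5 were higher and 0 lower, of the 3 amino acid transporters 2 were lower, of the 13 ER chaperones and folding factors 5 were lower and 1 higher, and of the 4 degradation factors 2 were lower. Among the 6 transcription factors 1 was higher and 2 lower, and among the 5 stress effectors 2 were higher and 1 lower. None of the 4 sensors and none of the 5 tRNA synthetases passed the threshold in edgeR's test. At an unadjusted p under 0.05 in edgeR's test there were 1 sensor, *Ern1*, and 1 synthetase, *Wars*. Of the 14169 genes tested, 3652 were higher and 3734 lower at that threshold. DESeq2 called 0 of the sensors and 1 synthetase, and limma on log2(FPKM + 1) called 1 sensor and 0 synthetases. The shares of all genes called by these tools are not given here.

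**Figure D1:**
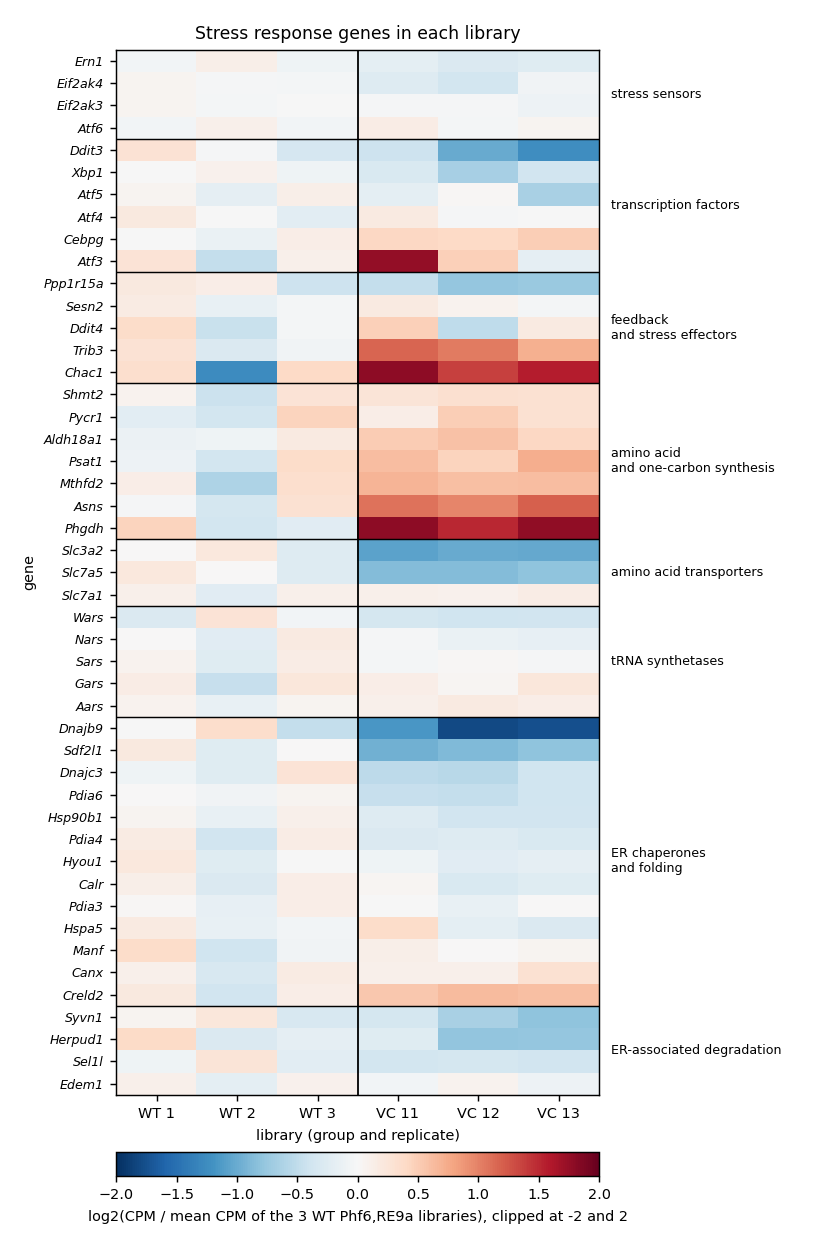
Level of the 47 genes (rows, grouped by role) in the 3 *WT Phf6,RE9a* and 3 *VC Phf6,RE9a* libraries (columns), as log2 of CPM over the mean CPM of the *WT Phf6,RE9a* libraries. The enzymes of amino acid synthesis form a red block and *Slc3a2*, *Slc7a5*, *Dnajb9* and *Sdf2l1* blue rows in the *VC Phf6,RE9a* columns, while *WT Phf6,RE9a* replicate 2 is paler or bluer than its group for *Chac1*, *Mthfd2* and *Manf*.

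**Figure D2:**
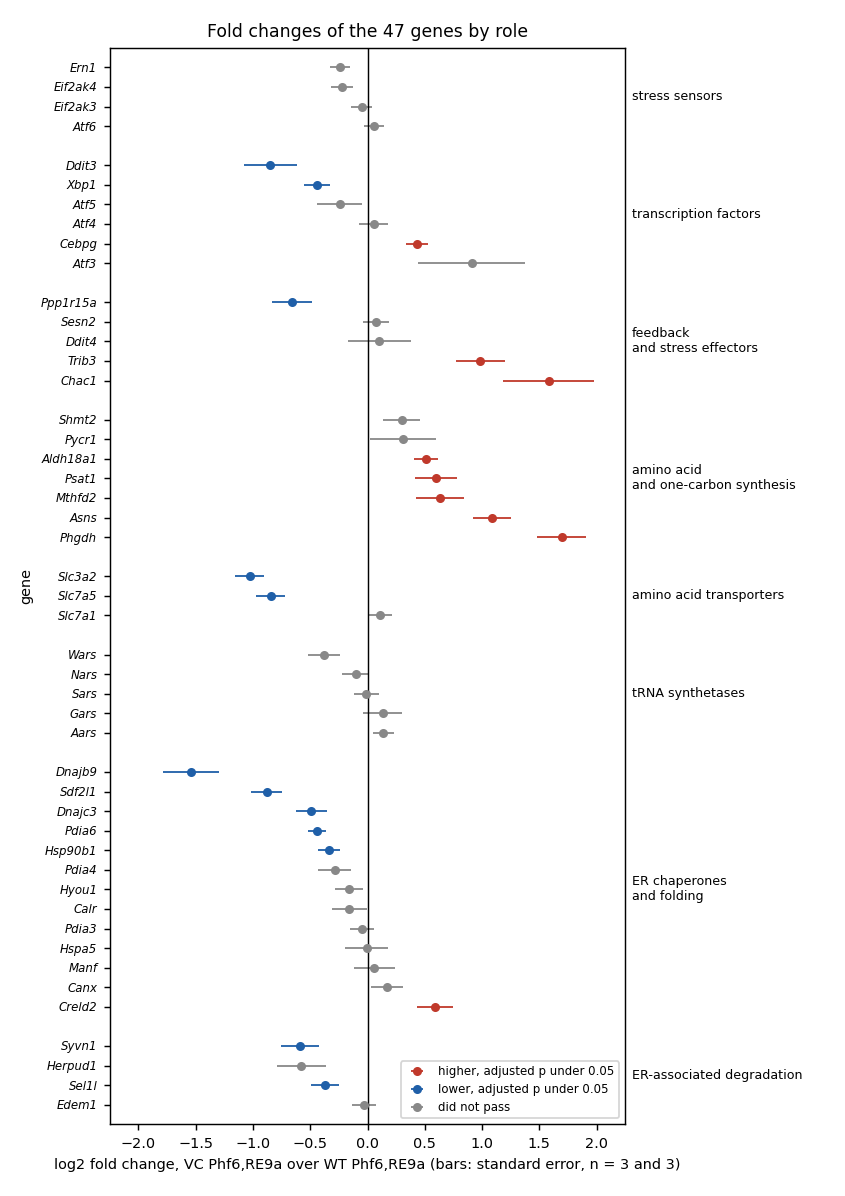
Log2 fold change (horizontal axis) of each gene in *VC Phf6,RE9a* cells relative to *WT Phf6,RE9a* cells, with its standard error, 3 libraries per group, ordered by role and coloured by edgeR's call. The points of the 7 synthesis enzymes all lie above 0, from 0.30 to 1.69, and those of the 4 degradation factors below 0, from -0.59 to -0.03.

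None of the 4 sensors passed, and their log2 fold changes ran from -0.24 to 0.06. PERK, encoded by *Eif2ak3*, had FPKM of 6.23, 5.76 and 5.87 in the *WT Phf6,RE9a* libraries against 5.79, 5.87 and 5.47 in the *VC Phf6,RE9a* libraries (log2 fold change -0.05, SE 0.090, 95% interval -0.26 to 0.16, edgeR adjusted p = 0.683). *Atf6* had FPKM of 15.0, 16.4 and 14.8 in the *WT Phf6,RE9a* libraries against 17.0, 15.0 and 15.8 in the *VC Phf6,RE9a* libraries (log2 fold change 0.06, SE 0.087, 95% interval -0.14 to 0.26, edgeR adjusted p = 0.616). For both genes the groups overlapped, and the intervals leave room for changes of either sign. The nutrient-sensing kinase GCN2, encoded by *Eif2ak4*, had FPKM of 11.3, 10.6 and 10.4 in the *WT Phf6,RE9a* libraries against 8.97, 8.37 and 10.2 in the *VC Phf6,RE9a* libraries (log2 fold change -0.22, SE 0.097, edgeR adjusted p = 0.0970). *Ern1*, which encodes the kinase and RNase IRE1, had FPKM of 19.3, 21.5 and 18.7 in the *WT Phf6,RE9a* libraries against 17.2, 16.3 and 16.5 in the *VC Phf6,RE9a* libraries (log2 fold change -0.24, SE 0.085, edgeR adjusted p = 0.0517). In *Ern1* and *Eif2ak4* the *VC Phf6,RE9a* libraries were all under the *WT Phf6,RE9a* libraries without passing the threshold. The 95% interval ran from -0.44 to -0.04 for *Ern1* and from -0.45 to 0.00089 for *Eif2ak4*. These intervals are not adjusted for the number of genes tested. *Ern1* passed it without *WT Phf6,RE9a* replicate 3 (adjusted p = 0.0339), with RLE size factors (adjusted p = 0.0480) and with limma on log2(FPKM + 1) (adjusted p = 0.0492).

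The *Atf4* message was abundant and did not pass the test. Its FPKM were 343, 295 and 256 in the *WT Phf6,RE9a* libraries against 336, 293 and 291 in the *VC Phf6,RE9a* libraries (log2 fold change 0.05, SE 0.13, 95% interval -0.24 to 0.35, edgeR adjusted p = 0.767). The 2 groups overlapped throughout. *Atf5*, a relative that is also controlled in translation, had FPKM of 9.80, 8.27 and 10.1 in the *WT Phf6,RE9a* libraries against 8.19, 9.55 and 5.91 in the *VC Phf6,RE9a* libraries (log2 fold change -0.24, SE 0.19, edgeR adjusted p = 0.341). Its exons share 4.11% of their bases with *Nup62* on the opposite strand, and the strandedness of the counting is not given in the sources used here. *Nup62* had 12034 counts against 1693 of *Atf5* over the 6 libraries.
CHOP, encoded by *Ddit3*, a factor that promotes cell death when stress persists, was lower. *Ddit3* had FPKM of 105, 83.5 and 67.6 in the *WT Phf6,RE9a* libraries against 63.3, 42.4 and 35.5 in the *VC Phf6,RE9a* libraries (log2 fold change -0.85, SE 0.23, edgeR adjusted p = 0.0204). The *VC Phf6,RE9a* libraries all lay lower, although the nearest pair, 63.3 and 67.6, was close. *Ddit3* did not pass the threshold without *WT Phf6,RE9a* replicate 1 (edgeR adjusted p = 0.0636), *VC Phf6,RE9a* replicate 12 (0.0744) or replicate 13 (0.0578). Its exons share 3.97% of their bases with *Mars* on the opposite strand, which had 10689 counts against 10996 of *Ddit3* over the 6 libraries.
*Cebpg*, a C/EBP partner of ATF4, was higher, with FPKM of 8.44, 7.66 and 9.27 in the *WT Phf6,RE9a* libraries against 11.2, 11.1 and 11.7 in the *VC Phf6,RE9a* libraries (log2 fold change 0.43, SE 0.097, edgeR adjusted p = 0.00885). *Atf3*, an early stress and growth response factor, had FPKM of 6.48, 3.81 and 5.73 in the *WT Phf6,RE9a* libraries against 17.9, 7.41 and 4.63 in the *VC Phf6,RE9a* libraries (log2 fold change 0.91, SE 0.47, edgeR adjusted p = 0.153). Its mean was carried by *VC Phf6,RE9a* replicate 11, without which the log2 fold change was 0.19, and it passed the threshold when *VC Phf6,RE9a* replicate 13 was left out (log2 fold change 1.25, adjusted p = 0.0432).

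*Xbp1* was lower in *VC Phf6,RE9a* cells. Its FPKM were 63.7, 67.5 and 59.5 in the *WT Phf6,RE9a* libraries against 50.9, 40.0 and 48.4 in the *VC Phf6,RE9a* libraries (log2 fold change -0.44, SE 0.11, edgeR adjusted p = 0.0143), and the groups did not overlap. The message becomes active only after IRE1 cuts a short stretch out of it, and counts per gene add the cut and the uncut form. The stretch lies in exon 4 of transcript Xbp1-201 (GENCODE M21, GRCm38) and is shown in capitals with 20 bases on either side because the counts cannot resolve it.
*Xbp1*, chr11:5524259-5524324, plus strand: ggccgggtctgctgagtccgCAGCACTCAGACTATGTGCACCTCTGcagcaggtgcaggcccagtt
Removal of these 26 bases lengthens the longest open reading frame of Xbp1-201 from 267 to 371 codons. How much of either form was present was not measured here.

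Among the regulators downstream of ATF4, *Trib3* and *Chac1* were higher and *Ppp1r15a* lower. *Trib3*, a pseudokinase that holds back ATF4 and AKT, had FPKM of 4.28, 2.85 and 3.30 in the *WT Phf6,RE9a* libraries against 7.76, 7.13 and 5.60 in the *VC Phf6,RE9a* libraries (log2 fold change 0.98, SE 0.21, edgeR adjusted p = 0.00803). The groups did not overlap. *Chac1*, which degrades glutathione, had FPKM of 2.78, 0.904 and 2.85 in the *WT Phf6,RE9a* libraries against 7.51, 5.58 and 6.38 in the *VC Phf6,RE9a* libraries (log2 fold change 1.58, SE 0.40, edgeR adjusted p = 0.0147). It rested on 22 to 78 counts in *WT Phf6,RE9a* and 158 to 211 in *VC Phf6,RE9a* libraries. When *VC Phf6,RE9a* replicate 11 was left out, edgeR's adjusted p was 0.0506.
*Ppp1r15a* encodes GADD34, which brings a phosphatase to eIF2α and so restores translation. With a mean FPKM of 400 over the 6 libraries it was the most abundant of the 47 messages per length. It had FPKM of 567, 536 and 368 in the *WT Phf6,RE9a* libraries against 350, 286 and 289 in the *VC Phf6,RE9a* libraries (log2 fold change -0.66, SE 0.18, edgeR adjusted p = 0.0190). The groups were apart by little, and the threshold was missed without *WT Phf6,RE9a* replicate 1 (adjusted p = 0.0566), *VC Phf6,RE9a* replicate 12 (0.0716) or replicate 13 (0.0645). *Ppp1r15a* is also an early response gene, and 6 of the 8 immediate-early genes above were lower in the same comparison. Their part in its change was not tested.
The mTORC1 inhibitors did not pass. *Ddit4*, which encodes REDD1, had FPKM of 115, 65.3 and 86.3 in the *WT Phf6,RE9a* libraries against 123, 62.4 and 98.9 in the *VC Phf6,RE9a* libraries (log2 fold change 0.10, SE 0.27, edgeR adjusted p = 0.784). Its libraries spread widely within both groups. *Sesn2*, a leucine sensor, had 10.3 ± 1.20 and 10.7 ± 0.827 FPKM (SD, n = 3), with a log2 fold change of 0.07 (SE 0.12).

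Of the 7 enzymes that make serine, asparagine, proline and one-carbon units, 5 were higher in *VC Phf6,RE9a* cells. *Phgdh*, the first enzyme of serine synthesis from glycolysis, changed most of the 47 genes. It had FPKM of 13.8, 7.77 and 8.57 in the *WT Phf6,RE9a* libraries against 34.4, 28.4 and 34.0 in the *VC Phf6,RE9a* libraries (log2 fold change 1.69, SE 0.21, edgeR adjusted p = 0.000666), or 3.24-fold. The lowest *VC Phf6,RE9a* library was above the highest *WT Phf6,RE9a* library by a wide margin. *Asns*, the asparagine synthetase and a standard ATF4 target, had FPKM of 114, 90.3 and 142 in the *WT Phf6,RE9a* libraries against 243, 226 and 262 in the *VC Phf6,RE9a* libraries (log2 fold change 1.09, SE 0.17, edgeR adjusted p = 0.00165). It was the most abundant enzyme of this role and its groups were likewise far apart.
*Aldh18a1*, which starts proline synthesis from glutamate, had FPKM of 44.9, 45.4 and 54.4 in the *WT Phf6,RE9a* libraries against 68.2, 72.4 and 63.7 in the *VC Phf6,RE9a* libraries (log2 fold change 0.51, SE 0.10, edgeR adjusted p = 0.00636). *Psat1*, the second enzyme of serine synthesis, rose from 42.9 ± 11.2 to 64.4 ± 6.13 FPKM (SD, n = 3; log2 fold change 0.60, SE 0.18, edgeR adjusted p = 0.0308). *Mthfd2*, a mitochondrial folate enzyme, rose from 13.99 ± 4.36 to 21.6 ± 0.562 FPKM (SD, n = 3; log2 fold change 0.63, SE 0.21, edgeR adjusted p = 0.0434). For these 3 genes too no *VC Phf6,RE9a* library reached down to the *WT Phf6,RE9a* range.
*Shmt2*, which passes the serine carbon to folate in mitochondria, went from 51.5 ± 12.3 to 62.9 ± 1.47 FPKM (SD, n = 3) and did not pass (log2 fold change 0.30, SE 0.16, edgeR adjusted p = 0.183). *Pycr1*, which completes proline synthesis, was the least abundant of the 47 messages at 0.887 ± 0.276 and 1.10 ± 0.144 FPKM (SD, n = 3), with 40 to 85 counts per library. Calls of the smaller changes did not hold in every fit with a library left out, and such fits have fewer libraries. The changes themselves stayed positive in all alternative fits, at no less than 0.44 for *Psat1* and 0.39 for *Mthfd2* in log2 units. *Psat1* missed the threshold without *WT Phf6,RE9a* replicate 1 (edgeR adjusted p = 0.0941) or 2 (0.0628) or *VC Phf6,RE9a* replicate 11 (0.0794) or 13 (0.0934), and *Mthfd2* without *WT Phf6,RE9a* replicate 1 (0.0736) or *VC Phf6,RE9a* replicate 11 (0.107), 12 (0.0943) or 13 (0.0914). *Shmt2* passed without *WT Phf6,RE9a* replicate 3 (0.0465), which was the highest of its group for that gene.

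Of the 3 transporters 2 were lower. *Slc3a2* encodes the heavy chain CD98 and *Slc7a5* the light chain LAT1, which together form the exchanger that brings leucine and other large amino acids into the cell. *Slc3a2* had FPKM of 154, 176 and 126 in the *WT Phf6,RE9a* libraries against 72.01, 75.7 and 74.1 in the *VC Phf6,RE9a* libraries (log2 fold change -1.03, SE 0.13, edgeR adjusted p = 0.000621). *Slc7a5* had FPKM of 195, 169 and 140 in the *WT Phf6,RE9a* libraries against 91.2, 91.7 and 95.2 in the *VC Phf6,RE9a* libraries (log2 fold change -0.85, SE 0.13, edgeR adjusted p = 0.00150). Both chains fell and each was tight among the *VC Phf6,RE9a* libraries and spread among the *WT Phf6,RE9a* libraries.
*Slc7a1*, the arginine and lysine carrier CAT1, had FPKM of 11.95, 9.47 and 11.9 in the *WT Phf6,RE9a* libraries against 11.8, 11.8 and 12.1 in the *VC Phf6,RE9a* libraries (log2 fold change 0.11, SE 0.11, edgeR adjusted p = 0.434). Its groups overlapped.

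**Figure D3:**
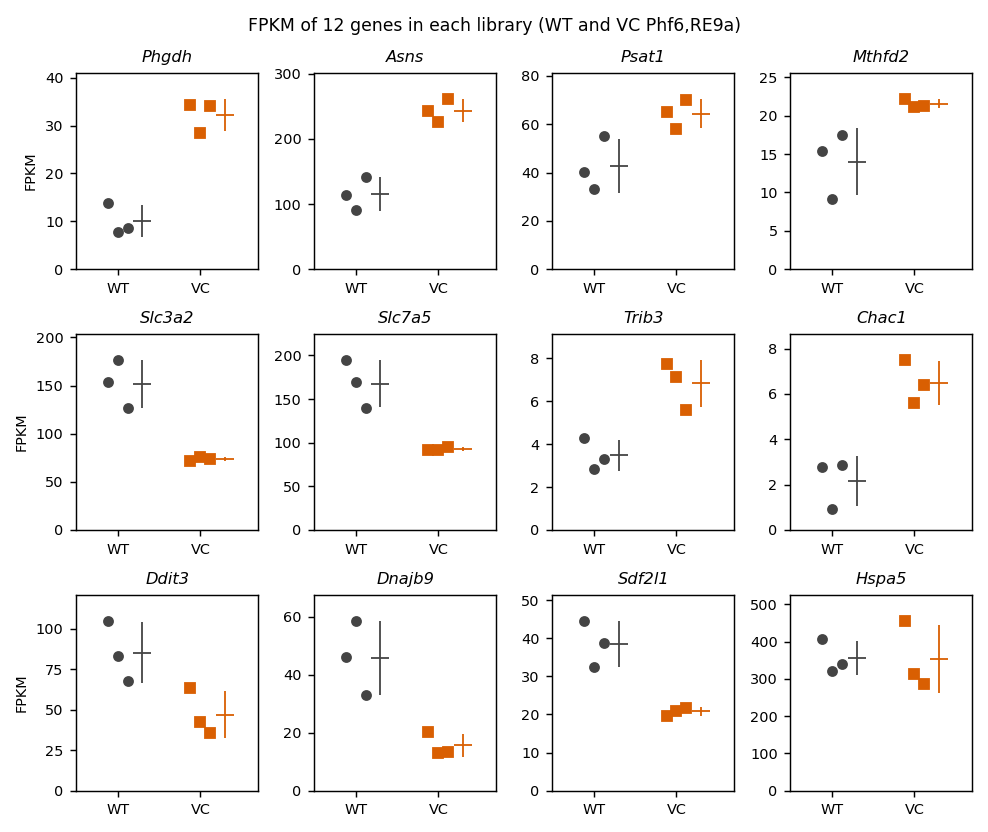
FPKM (vertical axes, from 0) of 12 of the genes in each *WT Phf6,RE9a* (circles) and *VC Phf6,RE9a* (squares) library, with the mean and SD of 3 libraries beside the points. *Phgdh*, *Asns*, *Psat1*, *Mthfd2*, *Trib3* and *Chac1* are higher and *Slc3a2*, *Slc7a5*, *Ddit3*, *Dnajb9* and *Sdf2l1* lower in *VC Phf6,RE9a* cells with no overlap, whereas the groups of *Hspa5* overlap.

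The tRNA synthetases, which charge tRNAs with their amino acid, did not pass the threshold. *Wars* (tryptophan) had FPKM of 21.9, 32.1 and 25.5 in the *WT Phf6,RE9a* libraries against 20.6, 20.1 and 20.1 in the *VC Phf6,RE9a* libraries (log2 fold change -0.38, SE 0.14, edgeR adjusted p = 0.0565). *Aars* (alanine) had FPKM of 20.2, 17.2 and 19.7 in the *WT Phf6,RE9a* libraries against 20.3, 21.7 and 20.5 in the *VC Phf6,RE9a* libraries (log2 fold change 0.14, SE 0.089, edgeR adjusted p = 0.242). The groups did not overlap in either gene, with *Wars* on the lower and *Aars* on the higher side in *VC Phf6,RE9a* cells. Exons of *Aars* share 14.29% of their bases with *Exosc6* on the same strand, which had 0 counts against 18289 of *Aars* over the 6 libraries. *Nars* (asparagine), the most abundant of the 5, had FPKM of 70.3, 58.9 and 78.4 in the *WT Phf6,RE9a* libraries against 67.5, 63.4 and 61.0 in the *VC Phf6,RE9a* libraries, and *Sars* (serine) had 30.5, 24.3 and 31.7 in the *WT Phf6,RE9a* libraries against 28.0, 29.1 and 28.1 in the *VC Phf6,RE9a* libraries. *Gars* (glycine) also overlapped between the groups (log2 fold change 0.13, SE 0.17). *Wars* passed with DESeq2 (adjusted p = 0.0495), without the count filter (0.0449) and without *WT Phf6,RE9a* replicate 1 (0.0163).

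The 4 ER chaperones with the highest FPKM did not pass, and 5 of the other 9 fell. *Hspa5*, which encodes BiP, the main chaperone and the brake on the sensors, had FPKM of 408, 322 and 340 in the *WT Phf6,RE9a* libraries against 457, 313 and 287 in the *VC Phf6,RE9a* libraries. Its log2 fold change was -0.01 (SE 0.19, 95% interval -0.45 to 0.43, edgeR adjusted p = 0.975), with *VC Phf6,RE9a* replicate 11 above all other libraries. *Calr*, a lectin chaperone of glycoproteins, had FPKM of 309, 232 and 312 in the *WT Phf6,RE9a* libraries against 290, 230 and 238 in the *VC Phf6,RE9a* libraries (log2 fold change -0.16, SE 0.15, edgeR adjusted p = 0.425). The 2 most abundant chaperones had overlapping groups, and so had the lectin chaperone *Canx* (log2 fold change 0.17, SE 0.14) and the oxidoreductase *Pdia3* (log2 fold change -0.05, SE 0.10).
*Dnajb9*, which encodes ERdj4, a BiP co-chaperone that represses IRE1 and is a known XBP1 target, fell most. It had FPKM of 46.0, 58.6 and 33.0 in the *WT Phf6,RE9a* libraries against 20.3, 13.2 and 13.4 in the *VC Phf6,RE9a* libraries (log2 fold change -1.54, SE 0.24, edgeR adjusted p = 0.00191), or 2.92-fold lower. *Sdf2l1*, a partner of ER co-chaperones, had FPKM of 44.6, 32.4 and 38.6 in the *WT Phf6,RE9a* libraries against 19.7, 20.9 and 21.8 in the *VC Phf6,RE9a* libraries (log2 fold change -0.88, SE 0.13, edgeR adjusted p = 0.00162). The groups of both genes were clearly apart, and both passed in each of the 11 alternative fits.
*Pdia6*, a disulfide isomerase, had FPKM of 42.5, 40.0 and 43.3 in the *WT Phf6,RE9a* libraries against 30.3, 30.2 and 31.5 in the *VC Phf6,RE9a* libraries, a smaller change with little spread (log2 fold change -0.44, SE 0.076, edgeR adjusted p = 0.00283). *Dnajc3*, which encodes the co-chaperone p58IPK, fell from 19.7 ± 3.61 to 13.9 ± 0.696 FPKM (SD, n = 3; log2 fold change -0.49, SE 0.13, edgeR adjusted p = 0.0203). *Hsp90b1*, which encodes GRP94, fell from 72.7 ± 6.60 to 57.1 ± 2.88 FPKM (SD, n = 3; log2 fold change -0.34, SE 0.096, edgeR adjusted p = 0.0232). Exons of *Hsp90b1* share 10.3% of their bases with a less abundant gene on the opposite strand, *1810014B01Rik*, which had 826 counts against 25692 of *Hsp90b1* over the 6 libraries.
*Creld2*, a secreted ER stress gene, was the exception and rose from 19.99 ± 4.18 to 29.9 ± 0.974 FPKM (SD, n = 3; log2 fold change 0.59, SE 0.16, edgeR adjusted p = 0.0177). The secreted stress factor *Manf* (log2 fold change 0.06, SE 0.18), the isomerase *Pdia4* (log2 fold change -0.29, SE 0.15) and the large chaperone *Hyou1* (log2 fold change -0.16, SE 0.12) did not pass. *Manf* shares 4.14% of its exon bases with *Dcaf1* on the opposite strand, which had 9053 counts against 5935 of *Manf* over the 6 libraries. *Pdia4* and *Hyou1* passed without *WT Phf6,RE9a* replicate 2, which was the lowest of its group for both (edgeR adjusted p = 0.00283 and 0.0495). *Creld2* missed the threshold without *VC Phf6,RE9a* replicate 12 (0.0594) or 13 (0.0515), *Dnajc3* without replicate 11 (0.0718) or 12 (0.0760), and *Hsp90b1* without *WT Phf6,RE9a* replicate 1 (0.0612) or *VC Phf6,RE9a* replicate 11 (0.0524), 12 (0.0881) or 13 (0.0853).

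Degradation factors were lower or level. *Syvn1*, which encodes HRD1, the ubiquitin ligase that marks misfolded ER protein, had FPKM of 44.0, 49.0 and 33.5 in the *WT Phf6,RE9a* libraries against 32.8, 26.9 and 23.9 in the *VC Phf6,RE9a* libraries (log2 fold change -0.59, SE 0.17, edgeR adjusted p = 0.0227). *Sel1l*, the scaffold of HRD1, had FPKM of 13.7, 17.3 and 12.5 in the *WT Phf6,RE9a* libraries against 11.2, 11.4 and 11.02 in the *VC Phf6,RE9a* libraries (log2 fold change -0.37, SE 0.12, edgeR adjusted p = 0.0419). The partners thus both lay lower, with the groups apart by a small margin in each. *Herpud1*, which recruits proteins to this ligase, had FPKM of 109, 67.8 and 73.0 in the *WT Phf6,RE9a* libraries against 70.0, 48.2 and 48.1 in the *VC Phf6,RE9a* libraries (log2 fold change -0.58, SE 0.22, edgeR adjusted p = 0.0613). *Edem1*, a lectin that directs glycoproteins to degradation, did not pass (log2 fold change -0.03, SE 0.11).
The calls of this role were fragile. *Syvn1* missed the threshold without *WT Phf6,RE9a* replicate 1 (edgeR adjusted p = 0.0596) or 2 (0.0515) or *VC Phf6,RE9a* replicate 12 (0.0767) or 13 (0.0745). *Sel1l* missed it without *WT Phf6,RE9a* replicate 1 (0.0572), without *VC Phf6,RE9a* replicate 11 (0.116), 12 (0.102) or 13 (0.106), and with limma on log2(FPKM + 1) (0.0582). *Herpud1* passed with DESeq2 (0.0252), without the count filter (0.0279), and without *WT Phf6,RE9a* replicate 2 (0.0369) or *VC Phf6,RE9a* replicate 11 (0.0320).

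Set by promoter motif, the 8 genes with ERSE had a median log2 fold change of -0.25, with 4 lower and 1 higher. The 7 genes with CARE and no ERSE-II had a median of 0.91, with 3 higher and 0 lower. That median is the value of *Atf3*, which did not pass and was at 0.19 without *VC Phf6,RE9a* replicate 11. *Herpud1*, which holds CARE and ERSE-II, did not pass. The 25 genes with a promoter window and none of the 3 motifs had 5 higher, *Phgdh* among them, and 7 lower, with a median of -0.05. Genes outside the list are given for comparison. The 268 other genes tested with CARE had a median log2 fold change of -0.01. Of 8 other genes tested with ERSE 1 was higher and 2 were lower, with a median of 0.06. A match of letters is not a bound site, and these windows say nothing of elements farther away.

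**Figure D4:**
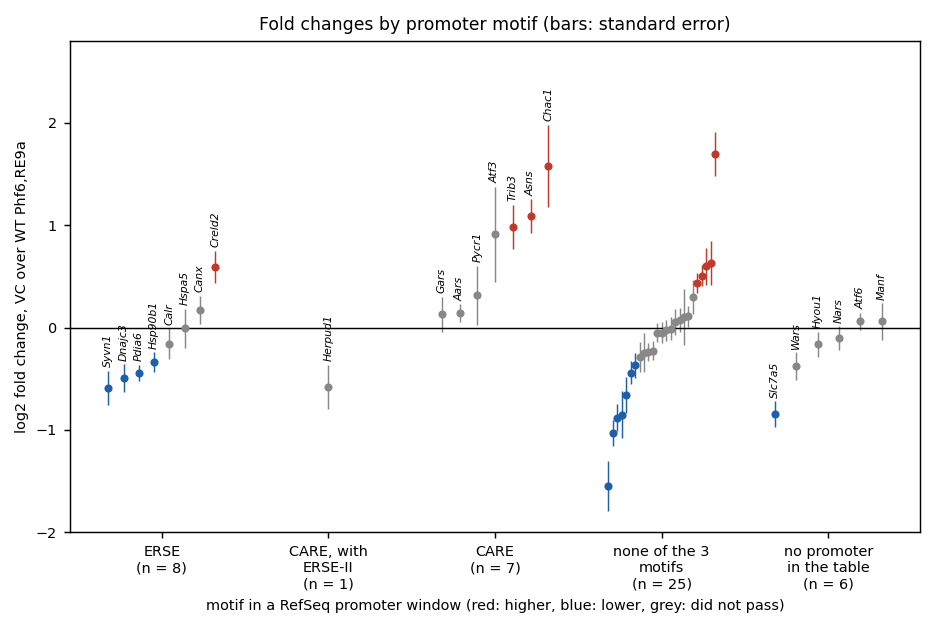
Log2 fold change with its standard error (vertical axis) of the 47 genes, set by the motifs found in their RefSeq promoter windows (horizontal axis), with genes that were higher in red, lower in blue and not past the threshold in grey. The 8 genes with ERSE lie between -0.59 and 0.59 and the 7 with CARE alone between 0.13 and 1.58, while genes without a motif span the whole range from -1.54 to 1.69.

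Other genes of the same pathways were taken from 6 lists with 102 genes, of which 100 were tested. In *VC Phf6,RE9a* cells 20 were higher and 17 lower at edgeR's adjusted p under 0.05, a share of 37.0% beside 44.2% of all genes tested, and the median log2 fold change was 0.03. Of the 10 kinases, phosphatases and sensors 3 were higher and 1 lower. The other eIF2α kinases were both higher, *Eif2ak2*, which encodes PKR (log2 fold change 1.08, SE 0.14, edgeR adjusted p = 0.000728), and *Eif2ak1*, which encodes the heme-regulated HRI (log2 fold change 0.62, SE 0.084, edgeR adjusted p = 0.000932). *Mbtps2*, the protease that frees ATF6, was lower (log2 fold change -0.74, SE 0.14, edgeR adjusted p = 0.00406).
Of the 22 other ATF4-pathway genes tested 4 were higher and 4 lower. *Eif4ebp1*, a brake on cap-dependent translation, was higher (log2 fold change 0.97, SE 0.10, edgeR adjusted p = 0.000341). The secreted stress cytokine *Gdf15* had 9, 13 and 14 counts in *WT Phf6,RE9a* and 161, 86 and 93 in the *VC Phf6,RE9a* libraries (log2 fold change 3.10, SE 0.37, edgeR adjusted p = 0.000516). *Vegfa*, also a hypoxia gene, dropped by 3.73 in log2 units (SE 0.41, adjusted p = 0.000375) and *Got1*, which makes aspartate, dropped by 1.05 (SE 0.16, adjusted p = 0.00153).
Of the 15 other cytosolic tRNA synthetases 4 were higher and 0 lower, with a median log2 fold change of 0.25. *Tars*, for threonine (log2 fold change 0.97, SE 0.14, edgeR adjusted p = 0.00117), and *Cars*, for cysteine (log2 fold change 0.56, SE 0.13, edgeR adjusted p = 0.00983), had the smallest p among them.
In the ER, 6 of 18 other folding enzymes were lower and 2 higher. *Ero1l*, the oxidase that recharges disulfide isomerases, went from 198 ± 50.1 to 42.8 ± 4.66 FPKM (SD, n = 3; log2 fold change -2.20, SE 0.20, edgeR adjusted p = 0.000168), a larger drop than that of any of the 47 genes. *Hspa13*, an HSP70 relative, had a log2 fold change of -1.19 (adjusted p = 0.000538), whereas *Tmx1* (0.35, adjusted p = 0.0130) and *Fkbp2* (0.50, adjusted p = 0.0296) were higher. Degradation genes beyond the list went both ways, with 3 of 15 higher and 2 lower. *Derl1*, a channel component, had a log2 fold change of 0.65 (adjusted p = 0.000460), while *Selenos* had -0.65 (adjusted p = 0.00133) and *Edem2* -0.73 (adjusted p = 0.00238).
Of 20 genes of ER entry and exit 4 were higher and 4 lower. *Sec24d*, a coat protein of vesicles that leave the ER (log2 fold change -1.28, SE 0.12, edgeR adjusted p = 0.000208), and the signal peptidase subunit *Spcs1* (log2 fold change -0.75, SE 0.091, adjusted p = 0.000584) were lower. *Sec11c*, the catalytic subunit of the same peptidase (log2 fold change 0.55, SE 0.088, edgeR adjusted p = 0.00210), and the glycosylation subunit *Ddost* (log2 fold change 0.41, SE 0.091, adjusted p = 0.00908) were higher.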

How the data were processed

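Read counts per Ensembl gene and FPKM of 6 libraries were taken from the authors' deposited table. The deposited counts are whole numbers without normalization. The authors' deposited FPKM equal these counts over the table's gene length and a rescaled library size, at 0.916 to 1.07 of the total count. The table also holds the authors' deposited DESeq2 comparison, with mean normalized counts as signal, log2 fold changes and p-values, in 5 columns that were left aside. The submitters' processing notes name Bowtie 0.12.0 and mm8, yet 98.33% of the genes shared with GENCODE M21 (GRCm38) have its start and end, so coordinates are given on GRCm38. The counting tool and strandedness are not given in the sources used here.

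Counts were filtered (filterByExpr), scaled by TMM and tested, 2-sided, with edgeR 4.0.16 in R 4.3.3. The SE is the log2 fold change over the square root of F, and the 95% intervals follow from it. CPM are TMM-scaled, and levels of different genes are compared in FPKM. The alternatives were DESeq2 1.42.0, RLE size factors, omission of the filter, a minimum of 10 counts in every library, limma 3.58.1 on log2(FPKM + 1), omission of each library, an adjusted p under 0.01 and a 2-fold minimum. The test was tried on simulated data, where it recovered 61 of 97 changes of 2-fold and 96 of 100 of 4-fold, with 4 false calls. Smaller changes were not simulated. Only 200 genes were changed there, as many up as down, and each gene was drawn at the trended dispersion. In the data 44.2% of genes passed, so the number of false calls does not carry over to them. Libraries within a group were further apart than counting noise, with a chi-square per gene of at least 11.8, and each was counted as a replicate. A count of 3 equals 0.175 to 0.204 CPM, and such limits cover counting error only.

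The 47 genes, their roles and the other lists were chosen with earlier results of these data known. By the rule for named genes, values per library are given for the sensors, the transcription factors and, in each other role, the 3 genes with the smallest p and the 2 with the highest FPKM. From each further list the 2 called genes with the smallest p in each direction are named. Of these, 1 gene is not reported here. *Mesdc2*, *Vimp* and *Ufd1l* were matched under newer symbols.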

Additional observations from a re-analysis of the deposited data

How the results depend on the processing

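No paired analysis was possible because the groups share no replicate number. Of the 47 genes, 11 passed in the same direction under all 11 alternative fits: *Sdf2l1*, *Dnajb9*, *Pdia6*, *Phgdh*, *Asns*, *Aldh18a1*, *Slc3a2*, *Slc7a5*, *Trib3*, *Cebpg* and *Xbp1*. The share of all genes that did so is not given here, so this number does not set the list apart from other genes. DESeq2, RLE size factors, omission of the count filter, 10 counts in every library and limma kept all counts of calls within 1.5 times of those reported, and they shifted the median of all genes by less than 0.1 on the log2 scale. At an adjusted p under 0.01, 5 of the 47 genes were higher and 5 lower, 12 of the 100 other pathway genes were higher, and over all genes 1690 were higher and 2110 lower. With a 2-fold minimum, 3 of the 47 were higher and 2 lower. With each library left out in turn, 6 (without *VC Phf6,RE9a* replicate 12) to 14 (without *WT Phf6,RE9a* replicate 2) of the 47 were lower, and 13 to 24 of the other pathway genes were higher. Calls over all genes in these fits are not given beside them. Of the 47, 7 were lower without *VC Phf6,RE9a* replicate 13, and of the other pathway genes 13 were higher without any one of the *VC Phf6,RE9a* libraries.

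The log2 fold changes that changed sign were all of genes that did not pass. With each library left out in turn they ran from -0.14 to 0.011 for *Pdia3*, -0.11 to 0.28 for *Manf*, -0.23 to 0.11 for *Hspa5*, -0.13 to 0.015 for *Edem1*, -0.0025 to 0.16 for *Slc7a1*, -0.0065 to 0.16 for *Sesn2*, -0.12 to 0.34 for *Ddit4*, -0.064 to 0.25 for *Gars*, -0.13 to 0.058 for *Sars* and -0.050 to 0.15 for *Atf4*. With 10 counts in every library *Hspa5* was at 0.0027 and *Sars* at 0.00013. The cause of these sign changes was not tested. *Pycr1*, *Chac1* and *Trib3* were the genes of the 47 with under 100 counts in a library, which limits their precision.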
